A study of Mus musculus with 10 samples.

Results

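The 10 genes described here are factors known for holding lymphocytes at rest or for slowing their growth. They are the Krüppel-like factors Klf2, Klf3, Klf6 and Klf13, the forkhead factors Foxo1, Foxo3 and Foxp1, the antiproliferative genes Btg1 and Tob1, and Tsc22d3. They were chosen by name, with earlier results of these data known, so their counts set against all genes below do not come from a blind choice. All 10 were found among the 17658 genes of the authors' table, and all 10 passed the filter that left 10225 genes for testing. The RNA came from B cells of C57BL/6 mice aged 10 weeks, enriched by magnetic removal of other cells, and the source is given as spleen and lymph node. There were 4 groups: unstimulated Nr4a1+/+ cells (1 library), unstimulated Nr4a1-/- cells (1 library), and cells of each genotype exposed for 2 hours to 10 µg/mL anti-IgM (4 libraries each, lettered A to D). Anti-IgM is an antibody that crosslinks the B cell antigen receptor, and Nr4a1 encodes Nur77, an orphan nuclear receptor induced by that receptor. The stated aim was to identify inducible genes whose expression depends on the genotype.

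The labels do not say which stretch of Nr4a1 the knockout allele removes, whether each letter is a separate mouse, or how pure the B cells were. The p-values below therefore measure the spread between these libraries, which may be technical. Nr4a1 itself was at 126 FPKM without stimulation in both genotypes, 744 to 856 FPKM in stimulated wild type and 660.2 to 759.96 FPKM in the stimulated libraries labelled knockout, so the stimulated groups overlapped and the gene did not check the labels. For that reason the second genotype is called labelled knockout throughout.

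Resting B cells circulate in a small, non-dividing state that is actively maintained by transcription and by RNA turnover. KLF2 and FOXO1 maintain genes for homing and cell cycle arrest, and the PI3K and AKT kinases, active when the antigen receptor is engaged, move FOXO proteins out of the nucleus. BTG and TOB proteins bind the CCR4-NOT deadenylase, which shortens the poly(A) tails of messenger RNAs, and TSC22D3, also called GILZ, is a leucine zipper protein induced by glucocorticoids.

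Because several of the 10 genes moved together with anti-IgM, the sequence just before the transcription start is shown for 5 of them, namely the 3 Krüppel-like factors with the largest falls, Foxo1, and Btg1, which rose. The letters are from RefSeq on GRCm38.p6, the build that also goes by mm10, and run 5′ to 3′ on the strand of the gene from 250 bases before the start up to the first base that GENCODE M21 places in an exon. Capitals mark matches, on either strand and with overlaps counted, to 4 motifs: the forkhead motif GTAAACA, the Krüppel-like factor motif CCNCNCCC, the steroid receptor motif ACANNNTGT, and AAAGGTCA, the site that Nr4a receptors bind as monomers. The stretches lie at chr8:72318812-72319032 on the plus strand for Klf2, chr5:64803271-64803387 on the plus strand for Klf3, chr7:63938916-63939165 on the minus strand for Klf13, chr3:52268087-52268335 on the plus strand for Foxo1 and chr10:96616751-96617000 on the plus strand for Btg1.
Klf2: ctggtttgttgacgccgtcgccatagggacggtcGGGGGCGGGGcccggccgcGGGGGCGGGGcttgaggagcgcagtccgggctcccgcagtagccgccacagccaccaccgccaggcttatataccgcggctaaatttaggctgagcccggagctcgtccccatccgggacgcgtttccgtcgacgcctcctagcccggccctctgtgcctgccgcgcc
Klf3: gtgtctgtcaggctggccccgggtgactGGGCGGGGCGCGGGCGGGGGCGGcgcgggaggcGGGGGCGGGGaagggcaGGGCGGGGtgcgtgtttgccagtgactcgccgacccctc
Klf13: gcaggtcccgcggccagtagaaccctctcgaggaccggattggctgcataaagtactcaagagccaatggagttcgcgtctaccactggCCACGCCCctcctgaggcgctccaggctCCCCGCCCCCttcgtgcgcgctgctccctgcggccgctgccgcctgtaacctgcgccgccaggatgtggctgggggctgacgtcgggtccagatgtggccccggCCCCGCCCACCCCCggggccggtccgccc
Foxo1: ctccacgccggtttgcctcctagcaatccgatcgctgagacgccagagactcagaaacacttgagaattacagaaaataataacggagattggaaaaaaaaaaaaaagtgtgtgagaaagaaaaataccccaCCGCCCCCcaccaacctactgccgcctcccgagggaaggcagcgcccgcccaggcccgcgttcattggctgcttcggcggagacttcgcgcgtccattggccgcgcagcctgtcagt
Btg1: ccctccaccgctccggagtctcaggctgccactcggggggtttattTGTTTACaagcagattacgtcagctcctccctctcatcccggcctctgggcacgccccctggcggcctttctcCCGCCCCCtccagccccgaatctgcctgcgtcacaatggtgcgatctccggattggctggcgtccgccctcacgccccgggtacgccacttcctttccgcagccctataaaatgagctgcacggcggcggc

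Over the full 250 bases before each listed start, the Krüppel-like motif was found 10 times in Klf3, 5 times in Klf13, 4 times in Klf2 and in Foxo3, 3 times in Tob1, 2 times in Klf6 and 1 time in Foxo1 and in Btg1. This motif is common, with a match in 45.9% of 32851 RefSeq promoter windows of that length. That share counts windows with any match, whereas the numbers above count overlapping matches. The fixed letters of the motif are all C, or G on the other strand. G and C made up 78.4% of the window of Klf3, 76.4% for Foxo3, 73.6% for Tob1, 71.6% for Klf13 and 71.2% for Klf2. They made up 65.2% for Btg1, 64.8% for Klf6 and 56.0% for Foxo1. The part of base composition in the match counts was not tested. Foxp1 and Tsc22d3 have 3 listed starts each, which held 3, 0 and 3 matches and 1, 0 and 0 matches. The forkhead letters were found in Btg1 and in no other of the 10, as TGTTTAC with its first base at -204 from the start, against 3.17% of all windows. Neither the Nr4a monomer letters (1.34% of all windows) nor the steroid receptor letters (5.84%) occurred in any listed window of the 10 genes. A match or its absence describes these letters in this window and shows nothing about binding.

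Levels are given as FPKM, which counts sequenced fragments relative to transcript length and library size, as deposited, so levels of different genes can be set side by side per length. Before stimulation Btg1 was the most abundant of the 10, with 259 and 313 FPKM in the wild-type library and the library labelled knockout. Tsc22d3 came next with 159.6 and 200.4 FPKM. Klf2 (mean of the pair 94.5 FPKM) and Foxp1 (94.0) could not be separated, since Foxp1 lay inside the range of Klf2. Foxo1 (46.9 FPKM), Klf13 (40.8), Klf3 (38.4) and Klf6 (33.4) formed a middle group in which each overlapped its neighbour, and Foxo3 (7.54) and Tob1 (7.45) were lowest and overlapped. Over the 8 stimulated libraries Btg1 (347 FPKM) and Foxp1 (136) were highest, followed by Tsc22d3 (41.5), Klf6 (28.6), Foxo1 (25.9), Klf13 (15.9), Klf2 (12.0), Klf3 (10.7), Foxo3 (5.03) and Tob1 (4.78). The neighbours whose ranges overlapped after stimulation were Klf6 with Foxo1, Klf2 with Klf3, and Foxo3 with Tob1. Klf2 thus stood in place 3 of the 10 before and in place 7 after 2 hours of anti-IgM.

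**Figure D1:**
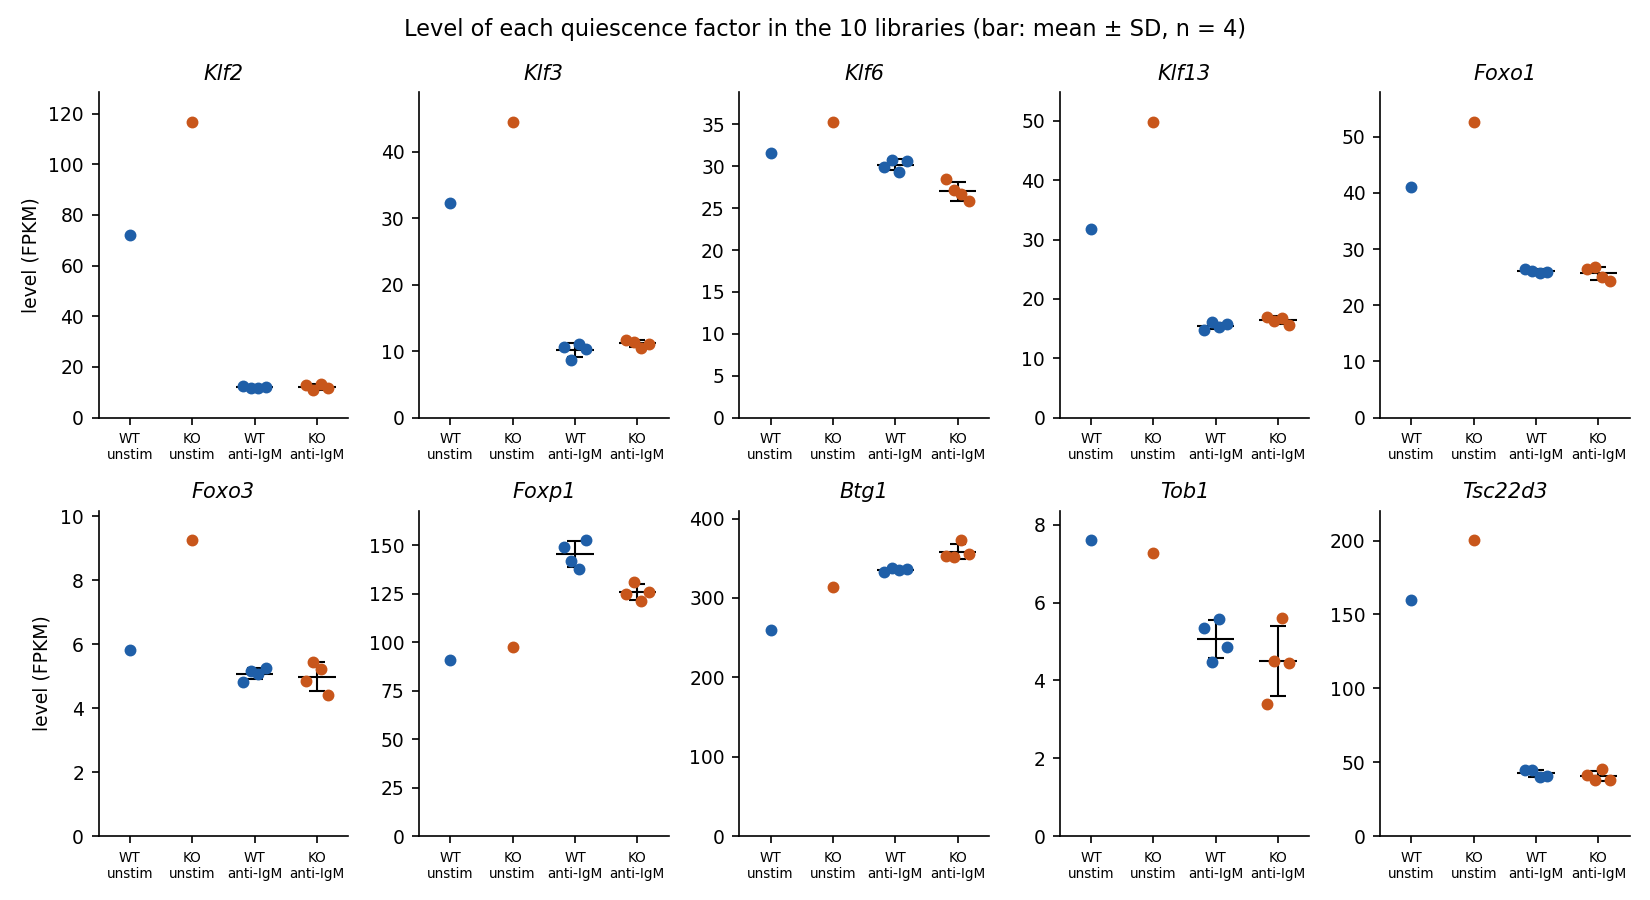
Level in FPKM of each of the 10 factors in the 10 libraries, with 1 point per library, wild type in blue and labelled knockout in orange, and the mean ± SD of the 4 stimulated libraries of each genotype. Klf2, Klf3, Klf13 and Tsc22d3 stand far lower after anti-IgM than before, and Foxp1 and Btg1 stand higher.

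With anti-IgM, transcripts of 8 of the 10 factors fell and those of 2, Foxp1 and Btg1, rose. The labels do not say whether the unstimulated cells were kept in culture for as long as the stimulated ones. Changes with anti-IgM, here and below, are therefore differences between these groups, and the part of time in culture in them was not tested. The largest fall was that of Klf2, whose wild-type level after 2 hours was 16.6% of the unstimulated one. Tsc22d3, Klf3 and Klf13 also fell by more than 2-fold, while the falls of Foxo1, Tob1, Foxo3 and Klf6 were smaller. Changes are differences of log2(FPKM + 1), tested with limma in a model that holds stimulation and genotype. With 1 unstimulated library per genotype, the spread among unstimulated cells of a genotype could not be measured, so these p-values lean on the stimulated libraries. A call means a Benjamini-Hochberg adjusted p under 0.05 over all 10225 genes. Many genes of these cells moved in the same way: 47.7% of all genes tested were called lower and 31.2% higher, so the counts of 8 and 2 are to be read against those shares. At least 2-fold lower were 4 of the 10, against 12.4% of all genes tested. In all 10 factors the unstimulated and stimulated libraries did not overlap, which held for 72.9% of genes tested.

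Klf2 encodes a zinc finger factor that keeps naive lymphocytes quiescent and directs their homing. Without stimulation its level was 72.1 FPKM in the library of wild type and 117 FPKM in that of labelled knockout. After anti-IgM, libraries A to D held 12.3, 11.8, 11.65 and 12.05 FPKM in wild type and 12.9, 10.7, 13.1 and 11.5 FPKM in labelled knockout. Every stimulated library was thus below both unstimulated ones by a wide margin, and the stimulated genotypes overlapped. Its log2 change came to -2.84 (SE 0.123, limma adjusted p = 2.96e-09), which placed Klf2 at rank 21 from the lowest of the 10225 genes tested.

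Klf3, which encodes a related zinc finger repressor, went from 32.3 and 44.55 FPKM to 10.6, 8.67, 11.05 and 10.3 FPKM in wild type and 11.6, 11.4, 10.5 and 11.1 FPKM in labelled knockout. Its log2 change was -1.74 (SE 0.0895, limma adjusted p = 1.09e-08), rank 265 from the lowest. Klf13, a factor of the same family known from lymphocyte chemokine and cytokine genes, went from 31.8 and 49.9 FPKM to 14.8, 16.1, 15.2 and 15.75 FPKM in wild type and 17.0, 16.2, 16.9 and 15.6 FPKM in labelled knockout. Its fall of 1.27 on the log2 scale (SE 0.0966, limma adjusted p = 2.86e-07) was the smallest of the 4 that passed 2-fold. Klf6, an early response gene in many cell types, stood in wild type at 31.5 FPKM before and at 29.9, 30.8, 29.4 and 30.6 FPKM after anti-IgM. In labelled knockout it went from 35.3 FPKM to 28.5, 27.15, 26.65 and 25.8 FPKM. Over both genotypes its log2 change was -0.22 (SE 0.0644, limma adjusted p = 0.00879), close to the median of -0.17 over all genes tested, and with median-of-ratios scaling it was 0.010 and did not pass (limma adjusted p = 0.877).

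Foxo1, a forkhead factor that sustains B cell identity and homing genes, stood at 41.1 and 52.7 FPKM before stimulation. Afterwards it held 26.5, 26.2, 25.8 and 26.0 FPKM in wild type and 26.5, 26.9, 25.0 and 24.3 FPKM in labelled knockout. The stimulated libraries of both genotypes lay close together and well below the unstimulated pair, a change of -0.82 on the log2 scale (SE 0.0724, limma adjusted p = 9.96e-07). Foxo3, its less abundant relative, stood at 5.83 and 9.25 FPKM before, and at 4.83, 5.15, 5.08 and 5.26 FPKM in stimulated wild type and 4.85, 5.44, 5.23 and 4.40 FPKM in stimulated labelled knockout. Most of its distance came from the unstimulated library labelled knockout. Its log2 change over both genotypes was -0.47 (SE 0.118, limma adjusted p = 0.00317), whereas without that library it was -0.17 and did not pass (limma adjusted p = 0.153).

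Foxp1, a forkhead repressor needed in B cell development and in the mature follicular pool, was the clearest exception to the falls. It rose from 90.7 FPKM to 149, 142, 138 and 153 FPKM in wild type, and from 97.25 FPKM to 125, 131, 121 and 126 FPKM in labelled knockout. The change was 0.52 on the log2 scale (SE 0.0649, limma adjusted p = 1.90e-05), above that of 82.0% of the genes tested.

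Of the antiproliferative pair, Btg1 rose and Tob1 fell. Btg1 went from 259 FPKM to 333, 338, 335 and 336 FPKM in wild type and from 313 FPKM to 353, 352, 373 and 356 FPKM in labelled knockout. Every stimulated library lay above both unstimulated ones, and the log2 change was 0.28 (SE 0.0443, limma adjusted p = 0.000125). Tob1 went from 7.61 FPKM to 5.34, 4.47, 5.59 and 4.86 FPKM in wild type and from 7.28 FPKM to 3.40, 4.51, 5.60 and 4.45 FPKM in labelled knockout. Its log2 change was -0.56 (SE 0.124, limma adjusted p = 0.00155), and it no longer passed after quantile normalization (-0.19, limma adjusted p = 0.204). Tsc22d3 fell from 159.6 FPKM to 44.9, 44.5, 40.2 and 40.7 FPKM in wild type and from 200.4 FPKM to 41.35, 37.65, 45.1 and 38.0 FPKM in labelled knockout. With -2.08 on the log2 scale (SE 0.0910, limma adjusted p = 3.12e-09) it ranked 131 from the lowest, second to Klf2 among the 10.

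The scale of the table matters for the smaller of these changes. The median log2 change was -0.17 over all genes tested and -0.69 over the 10 factors. Rescaling the libraries to equal sums (TPM) moved these medians to -0.031 and -0.56, median-of-ratios scaling to 0.035 and -0.47, and quantile normalization to -0.0022 and -0.58. The split of called genes into 3188 higher and 4881 lower (39.5% higher) became 49.0% higher, 53.8% higher and 50.1% higher in that order. Klf6 lost its call with TPM (-0.061, limma adjusted p = 0.565) and without the unstimulated library labelled knockout (-0.063, limma adjusted p = 0.327). After quantile normalization it was -0.27 and passed (limma adjusted p = 0.000808). Foxo3 did not pass after quantile normalization (-0.12, limma adjusted p = 0.353). Klf2, Klf3, Klf13, Foxo1, Foxp1 and Tsc22d3 kept direction and call in each of the 24 alternatives run, and Btg1 in 23 of them. These alternatives are not all separate checks. Leaving out the unstimulated library labelled knockout gave the same changes as the fit within wild type (Klf2 -2.496 in both). Leaving out the unstimulated wild-type library gave those of the fit within labelled knockout (Klf2 -3.178 in both). In bulk RNA, fewer cells of a type and less RNA per cell cannot be told apart. The summed level of 8 B cell markers was 4637 and 4658 FPKM before stimulation and 2237 to 2390 FPKM after it, with 6 of the 8 lower and 1 higher, and the part of a broad fall of B cell transcripts in these results was not tested.

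The genotypes were compared after anti-IgM over 4 libraries each, the one comparison with replicates on both sides. Foxp1 and Klf6 were lower and Btg1 was higher in labelled knockout, each by a small amount, and the 4 and 4 libraries of these 3 genes did not overlap. Klf2, Klf3, Klf13, Foxo1, Foxo3, Tob1 and Tsc22d3 did not pass the test. The 2 lower calls stand against 5.81% of all genes tested, the 1 higher call against 3.91%, and the 3 non-overlapping factors against 15.5% of all genes. The median log2 difference was -0.024 over all genes tested and -0.026 over the 10 factors. Of the called genes 40.2% were higher in labelled knockout on the deposited scale, 52.2% after quantile normalization and 59.7% with median-of-ratios scaling.

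Foxp1 held 145 ± 6.73 FPKM (SD, n = 4) in stimulated wild type and 126 ± 4.12 FPKM (SD, n = 4) in labelled knockout. Its lowest wild-type library (138 FPKM) stood above the highest one labelled knockout (131 FPKM), and the ratio of the means was 0.866. The log2 difference was -0.21 (SE 0.0371, limma adjusted p = 0.00722), and the two-sided exact permutation p was 0.0286, the smallest that 4 against 4 libraries allow. The call held in 20 of 20 alternatives, with limma adjusted p from 0.00342 to 0.0269.

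Klf6 held 30.2 ± 0.656 FPKM in stimulated wild type and 27.0 ± 1.13 FPKM in stimulated labelled knockout (SD, n = 4 each), a log2 difference of -0.15 (SE 0.0350, limma adjusted p = 0.0247, exact permutation p = 0.0286). Btg1 held 335 ± 2.25 FPKM in stimulated wild type and 358 ± 9.76 FPKM in stimulated labelled knockout (SD, n = 4 each), a log2 difference of 0.10 (SE 0.0235, limma adjusted p = 0.0341, exact permutation p = 0.0286). The ratios of the means were 0.897 for Klf6 and 1.07 for Btg1. Both calls sat near the threshold. Klf6 passed in 11 of 20 alternatives, with limma adjusted p from 0.0135 to 0.0779, and Btg1 in 9 of 20, from 0.0132 to 0.272. Leaving out stimulated wild-type library A, B or D, or labelled knockout library C or D, ended the call of both genes. Leaving out wild-type library C or labelled knockout library A ended that of Btg1 as well.

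For the other factors an interval is given for the difference between the groups. It rests on the spread between these libraries, which may be technical. Klf2 held 12.0 ± 0.301 FPKM (SD, n = 4) and 12.1 ± 1.12 FPKM (SD, n = 4), with a log2 difference of 0.0070 and a 95% interval from -0.13 to 0.14 (limma adjusted p = 0.965). Klf3 (10.2 ± 1.04 and 11.2 ± 0.487 FPKM, SD, n = 4 each) gave 0.13, from -0.026 to 0.28 (limma adjusted p = 0.318). Klf13 (15.5 ± 0.556 and 16.4 ± 0.621 FPKM, SD, n = 4 each) gave 0.083, from -0.0070 to 0.17 (limma adjusted p = 0.266). The intervals of these Krüppel-like factors all held 0. For Foxo1 (26.1 ± 0.302 and 25.7 ± 1.22 FPKM, SD, n = 4 each) the interval ran from -0.11 to 0.057 (limma adjusted p = 0.758). For Foxo3 (5.08 ± 0.182 and 4.98 ± 0.457 FPKM, SD, n = 4 each) it ran from -0.17 to 0.12 (limma adjusted p = 0.854). The widest interval was that of Tob1 (5.07 ± 0.499 and 4.49 ± 0.899 FPKM, SD, n = 4 each), from -0.41 to 0.10 (limma adjusted p = 0.486), and Tsc22d3 (42.6 ± 2.45 and 40.5 ± 3.47 FPKM, SD, n = 4 each) ran from -0.21 to 0.067 (limma adjusted p = 0.558). Exact permutation p for these 7 genes ranged from 0.0857 (Klf13) to 0.943 (Klf2).

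Markers of other cells were looked at beside this comparison. The summed level of 10 T cell markers was 53.3 to 57.5 FPKM in stimulated wild type and 74.7 to 77.7 FPKM in labelled knockout, against 20.4 and 27.9 FPKM before stimulation. That sum came almost wholly from Lck (43.7 to 48.1 and 64.4 to 66.85 FPKM after anti-IgM) and Cd5, while the defining markers Cd3e, Cd3d and Cd3g reached at most 0.10, 0.29 and 0.33 FPKM in any library. Myeloid markers summed to 47.1 to 150.5 FPKM in stimulated wild type and 30.2 to 112 FPKM in labelled knockout. The 6 matched erythroid markers summed to 13.3 to 66.75 FPKM and 7.84 to 38.2 FPKM, and 6 matched NK cell markers stayed at or below 2.53 FPKM in sum. No marker of these lists was at 0 in every library, and the part of the myeloid and erythroid spread in the genotype differences was not tested.

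Markers of B cell subsets and of plasma cells also differed between the stimulated genotypes. Of 6 tested marginal zone markers, the complement receptor gene Cr2 (-0.52, limma adjusted p = 0.000273) and Dtx1 (-0.14, limma adjusted p = 0.0454), a regulator of Notch signalling, were lower in labelled knockout, and S1pr3 (0.52, limma adjusted p = 0.000475), a sphingosine-1-phosphate receptor gene, was higher. Dtx1 lost its call under each of the 3 other scalings (limma adjusted p from 0.0515 to 0.203). The 6 together summed to 187.3 to 206.5 FPKM in stimulated wild type and to 164.1 to 194.0 FPKM in labelled knockout, ranges that overlap. Of 5 follicular markers, a list that also holds Klf2, Cd55 was higher (0.54, limma adjusted p = 0.000178) and Ccr7 lower (-0.21, limma adjusted p = 0.00964), and the sums were 830.3 to 906.7 FPKM and 794.1 to 846.6 FPKM. Of 6 plasma cell markers, only Prdm1, which encodes the plasma cell regulator BLIMP-1, was called, and it was higher (0.44, limma adjusted p = 0.0101). The sums were 1095 to 1152 FPKM and 1170 to 1231 FPKM, which do not overlap. They came almost wholly from Irf4 (969.6 to 1039.7 FPKM in stimulated wild type and 1054.6 to 1113.2 FPKM in labelled knockout). Irf4 rose by 3.11 on the log2 scale with anti-IgM and did not pass between genotypes (0.098, limma adjusted p = 0.0674). Of the 8 B cell markers, Cd79b, a signalling chain of the antigen receptor, was lower (-0.32, limma adjusted p = 0.000540) and Fcmr (listed as Faim3), an IgM receptor gene, higher (0.22, limma adjusted p = 0.000219). The part of these marker differences in the differences of Foxp1, Klf6 and Btg1 was not tested.

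Before stimulation, 6 of the 10 factors were called higher in the library labelled knockout than in the wild-type library: Klf2, Klf13, Foxo3, Klf3, Foxo1 and Btg1. The ratios were 1.62 for Klf2, 1.59 for Foxo3, 1.57 for Klf13, 1.38 for Klf3, 1.28 for Foxo1 and 1.21 for Btg1. Higher calls in this pair made up 16.7% of all genes tested. The median log2 difference was 0.067 over all genes tested and 0.34 over the 10 factors, and rescaling to TPM moved these to 0.24 and 0.52. The share of called genes that were higher was 72.9% as deposited, 94.0% with TPM and 56.3% after quantile normalization. There was 1 library a side, so the test assumed that these libraries vary as the stimulated ones do, and nothing in the data checks that for unstimulated cells.

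The log2 differences of the unstimulated pair were 0.69 for Klf2 (SE 0.117, limma adjusted p = 0.00344) and 0.63 for Klf13 (SE 0.0774, limma adjusted p = 0.00107). They were 0.59 for Foxo3 (limma adjusted p = 0.0101), 0.35 for Foxo1 (limma adjusted p = 0.00790) and 0.27 for Btg1 (limma adjusted p = 0.00374). Klf3, at 0.45 (SE 0.135, limma adjusted p = 0.0400), lost its call in 11 of 19 alternatives, among them the fits without stimulated wild-type library A or D or labelled knockout library A, B or D. Tsc22d3 (0.33, limma adjusted p = 0.0860), Klf6 (0.16, limma adjusted p = 0.134), Foxp1 (0.10, limma adjusted p = 0.373) and Tob1 (-0.056, limma adjusted p = 0.891) did not pass. The call of Tsc22d3 was gained without labelled knockout library C (limma adjusted p = 0.0415). After rescaling to TPM, Tsc22d3 (0.51, limma adjusted p = 0.00960), Klf6 (0.34, limma adjusted p = 0.00964) and Foxp1 (0.28, limma adjusted p = 0.0273) passed as well, for 9 of the 10.

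**Figure D2:**
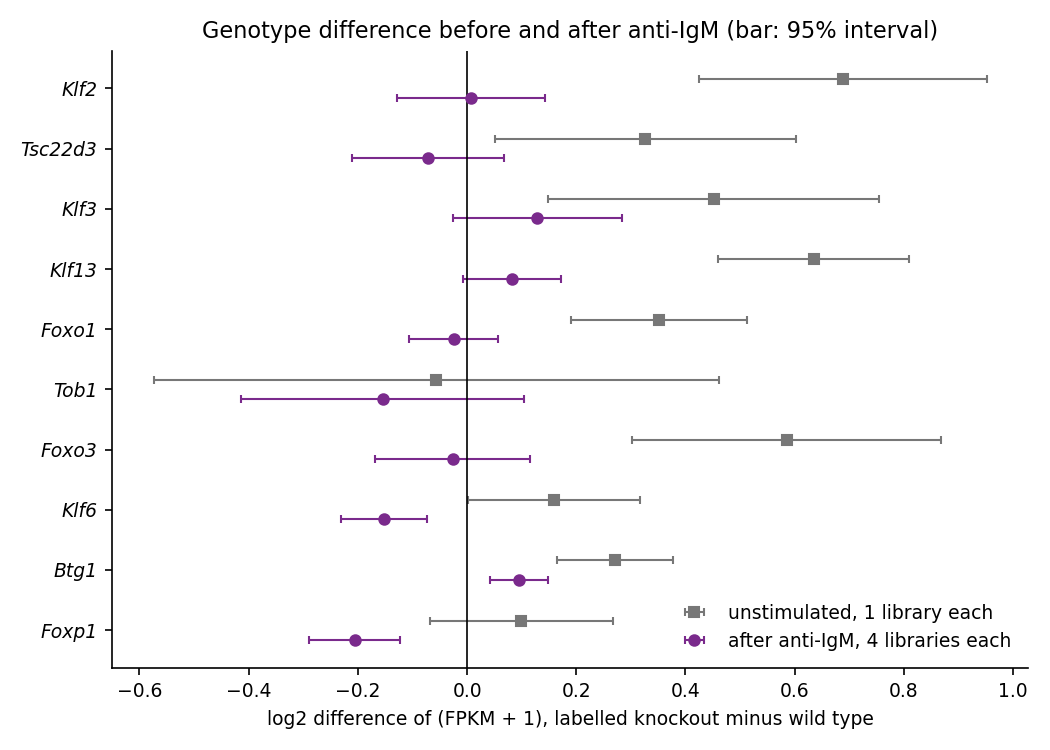
Log2 difference of (FPKM + 1) between labelled knockout and wild type for each factor, in the unstimulated pair (grey squares, 1 library each) and after anti-IgM (purple circles, 4 libraries each), with 95% intervals. Klf2, Klf13 and Foxo3 sit at 0.59 to 0.69 before stimulation and within 0.083 of 0 after it.

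The unstimulated wild-type library stood apart from the other 9 in ways that touch this comparison. Its FPKM summed to 674961, against 595500 in the unstimulated library labelled knockout and 557214 to 571784 in the stimulated libraries. Its 10 most abundant genes held 16.2% of that sum, against 13.7% and 11.5% to 12.4%. Its erythroid markers summed to 123.0 FPKM, against 40.2 FPKM in the other unstimulated library and 7.84 to 66.75 FPKM after anti-IgM, and their part in the difference of the pair was not tested. The genotype difference of the pair also ran with transcript length. Its median was -0.24 on the log2 scale for 627 genes whose longest transcript is under 1 kb, 0.0 for 2014 genes of 1 to 2 kb, 0.084 for 3942 genes of 2 to 4 kb, 0.12 for 1938 genes of 4 to 6 kb and 0.15 for 1217 genes over 6 kb. After anti-IgM the same medians ran from -0.051 to -0.012.

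The factors have long transcripts for the most part. The longest annotated transcript measures 8665 bases for Foxo1, 7177 for Foxp1, 6848 for Foxo3, 6396 for Klf13, 5221 for Klf3, 5001 for Btg1 and 4225 for Klf6, against 2288 for Tob1, 1974 for Tsc22d3 and 1847 for Klf2. With trends in length and GC content taken out of the values, an alternative chosen after seeing the data, 3 of the 10 were called in the unstimulated pair, against 6.86% of 9738 genes called in either direction. These were Klf2 (0.50, limma adjusted p = 0.0283), Klf13 (0.34, limma adjusted p = 0.0423) and Btg1 (0.27, limma adjusted p = 0.0444). Foxo3 (0.32, limma adjusted p = 0.143), Foxo1 (0.16, limma adjusted p = 0.128) and Klf3 (0.38, limma adjusted p = 0.0914) no longer passed. Klf2, a short transcript, thus lay well above the median of its length class, while Klf6 and Foxp1 lay close to theirs.

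**Figure D3:**
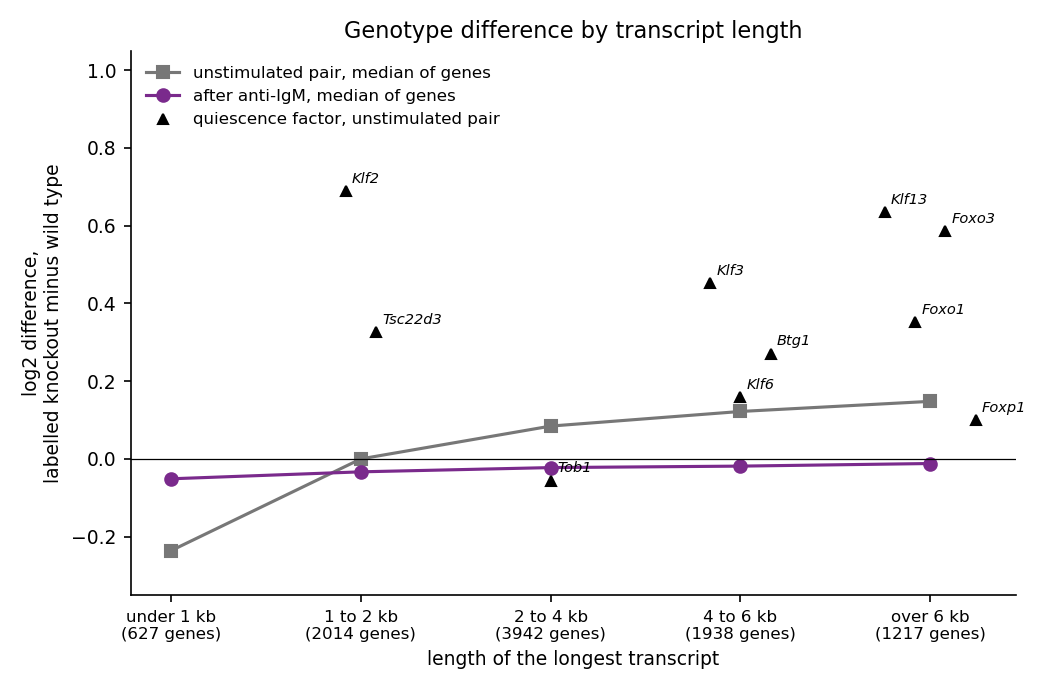
Median log2 difference between labelled knockout and wild type by class of transcript length, for the unstimulated pair (grey squares) and after anti-IgM (purple circles), with the 10 factors of the unstimulated pair as black triangles in their length class, set side by side within a class. The grey line climbs from -0.24 under 1 kb to 0.15 over 6 kb, the purple line stays between -0.051 and -0.012, and Klf2 at 0.69 lies far above the 0.0 of its class.

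The responses of the genotypes were then set side by side, from 1 unstimulated and 4 stimulated libraries each. The wild-type level after anti-IgM was 16.6% of the unstimulated one for Klf2, 26.7% for Tsc22d3, 31.4% for Klf3, 48.6% for Klf13, 63.6% for Foxo1, 66.6% for Tob1, 87.1% for Foxo3 and 95.6% for Klf6. In labelled knockout the shares were 10.3%, 20.2%, 25.1%, 32.9%, 48.7%, 61.7%, 53.8% and 76.5% in the same order. Foxp1 reached 160.2% of its unstimulated level in wild type and 129% in labelled knockout, and Btg1 129% and 114%. Within wild type alone, Klf6 (log2 change -0.063, limma adjusted p = 0.324) and Foxo3 (-0.17, limma adjusted p = 0.150) did not pass, and within labelled knockout all 10 factors passed with limma.

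**Figure D4:**
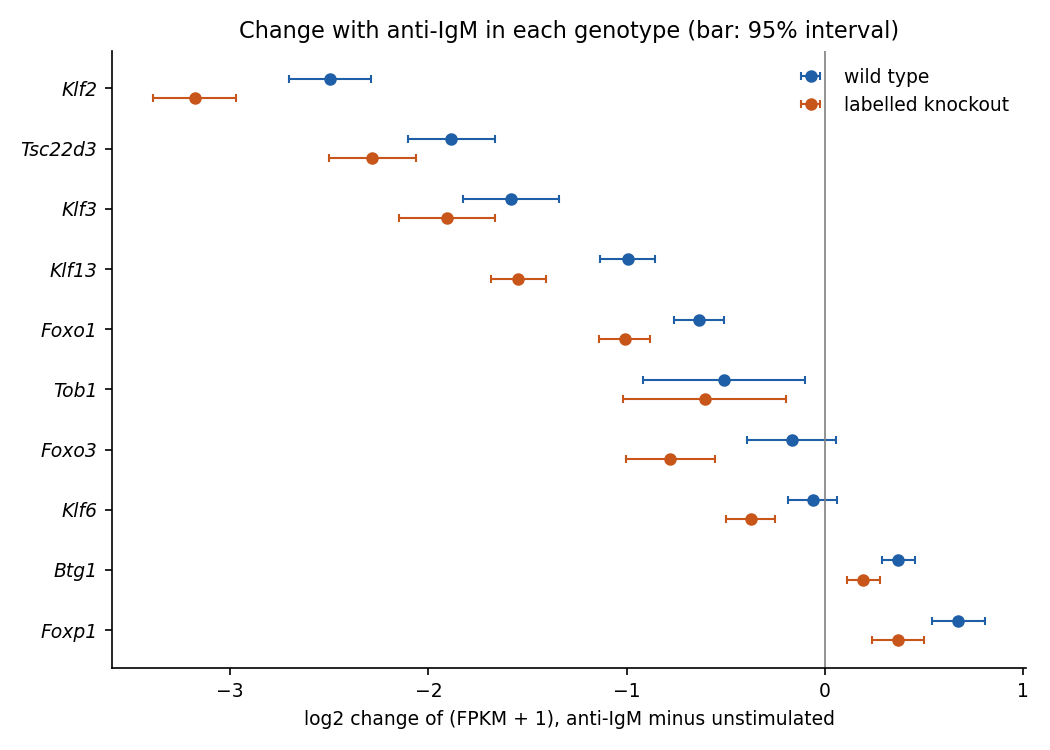
Log2 change of (FPKM + 1) with anti-IgM for each factor in wild type (blue) and labelled knockout (orange), with 95% intervals from the model of 4 groups, in which the lone unstimulated library of a genotype is assumed to vary as the stimulated ones do. The orange point lies to the left of the blue one for each of the 10 factors, and the intervals of the 2 genotypes do not meet for Klf2, Klf13, Foxo1, Foxo3, Klf6, Foxp1 and Btg1.

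The difference between these responses was called, with a lower response in labelled knockout, for 7 of the 10 factors, against 14.7% of all genes tested. The log2 difference in response was -0.68 for Klf2 (SE 0.131, limma adjusted p = 0.00814), -0.61 for Foxo3 (SE 0.140, limma adjusted p = 0.0169) and -0.55 for Klf13 (SE 0.0865, limma adjusted p = 0.00402). It was -0.38 for Foxo1 (limma adjusted p = 0.0123), -0.31 for Klf6 (limma adjusted p = 0.0237), -0.31 for Foxp1 (limma adjusted p = 0.0325) and -0.18 for Btg1 (limma adjusted p = 0.0453). For Tsc22d3 (-0.40, limma adjusted p = 0.0729), Klf3 (-0.32, limma adjusted p = 0.171) and Tob1 (-0.098, limma adjusted p = 0.830) it did not pass. For Foxp1 and Btg1 a lower response means a smaller rise, and for the others a deeper fall. The call of Foxp1 was lost without stimulated wild-type library A or labelled knockout library A or D, and that of Btg1 without any one stimulated library other than labelled knockout C. Klf3 passed without wild-type library B (limma adjusted p = 0.0302) and Tsc22d3 without labelled knockout library C (limma adjusted p = 0.0253).

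This comparison uses the same unstimulated pair as the one before it, so the 2 are not independent: the values of the stimulated genotypes for Klf2, Klf13, Foxo1 and Foxo3 lay close together, and the starting levels did not. With the length and GC trends removed, 0 of the 10 passed with limma (7 at an unadjusted p under 0.05), against 3.39% of all genes called and 20.5% of all genes at an unadjusted p under 0.05. The median difference in response was -0.096 over all genes tested and -0.35 over the 10 factors, and -0.26 and -0.52 after rescaling to TPM. Of the genes called, 22.1% had a higher response in labelled knockout as deposited, 4.82% with TPM, 42.0% after quantile normalization and 34.3% with median-of-ratios scaling. Median-of-ratios scaling left 4 of the 10, and whether the genotype or the unstimulated wild-type library sets the difference cannot be told apart with 1 unstimulated library a genotype.

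Related genes were taken from 10 lists drawn up for these pathways, and each list is described by counts beside the shares over all genes already given. Of 11 other Krüppel-like factors, 6 were expressed well enough to test, of which 3 rose and 2 fell with anti-IgM. Klf10, a TGF-beta-inducible relative, rose from 10.4 and 14.03 FPKM to 59.2 ± 0.570 FPKM in stimulated wild type and 69.4 ± 1.33 FPKM in stimulated labelled knockout (SD, n = 4 each), a log2 change of 2.31 with stimulation. It was also higher in labelled knockout after anti-IgM (0.23, limma adjusted p = 0.000271). Klf9 rose by 1.30 on the log2 scale and was lower in labelled knockout (-0.28, limma adjusted p = 0.0124), and Klf16 rose by 1.26. The Krüppel-like family thus split, with Klf2, Klf3 and Klf13 falling by more than 2-fold and Klf9, Klf10 and Klf16 rising by more than 2-fold.

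Of 12 other forkhead genes, 10 were tested, of which 7 rose and 2 fell. Foxo4, another FOXO gene, fell from 13.7 and 14.6 FPKM to 4.53 ± 0.135 FPKM in stimulated wild type and 4.0 ± 0.246 FPKM in stimulated labelled knockout (SD, n = 4 each), a log2 change of -1.53. Foxo1 and Foxo3 stood at -0.82 and -0.47, and the differences between these genes were not tested. Foxj2 fell by 0.91 and Foxn2 rose by 1.32 on the log2 scale. Between genotypes after anti-IgM, Foxn3 was lower in labelled knockout (70.5 ± 3.44 and 49.5 ± 2.53 FPKM, SD, n = 4 each, log2 difference -0.50, limma adjusted p = 0.000135). Foxp4 (0.20, limma adjusted p = 0.00507) and Foxj1 (0.25, limma adjusted p = 0.0490) were higher, and Foxj1 no longer passed after rescaling to TPM (limma adjusted p = 0.0565).

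Among the relatives of Btg1 and Tob1, Btg2 fell from 150 and 215 FPKM to 55.4 ± 1.15 FPKM in stimulated wild type and 62.3 ± 2.04 FPKM in stimulated labelled knockout (SD, n = 4 each), a log2 change of -1.60. Btg3 rose by 1.57 and Tob2 by 0.63, so both the BTG and the TOB genes moved in both directions. Btg2 (0.16, limma adjusted p = 0.00702) and Tob2 (0.20, limma adjusted p = 0.0108) were higher in labelled knockout after anti-IgM, as Btg1 was. Of 12 genes for the CCR4-NOT deadenylase and its substrate-binding partner Pabpc1, 6 rose and 5 fell, with Cnot8 (0.79), Pabpc1 (0.62) and Cnot7 (0.43) changing most on the log2 scale. The falls were small: after rescaling to TPM 1 of the 12 was called lower, with median-of-ratios scaling 0 were, after quantile normalization 4 were, and Cnot2, Cnot3 and Cnot6l then changed sign in 1 or both. Cnot6l, a catalytic subunit, was higher in labelled knockout (0.19, limma adjusted p = 0.00769), and no other gene of this list passed between genotypes. All 3 other Tsc22 genes passed with stimulation, Tsc22d1 at -1.69, Tsc22d4 at -1.13 and Tsc22d2 at 0.14, and none of the 3 passed between genotypes after anti-IgM (lowest limma adjusted p 0.464, for Tsc22d2).

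The genes that KLF2 and FOXO1 are known to drive moved in both directions. Of 5 homing and survival targets, 3 fell and 2 rose. Itgb7, a gut-homing integrin subunit, fell by 1.41 on the log2 scale, while Il7r, which encodes the interleukin-7 receptor chain, rose by 2.37 and the chemokine receptor gene Ccr7 by 0.68. Itgb7 was higher (0.24, limma adjusted p = 0.0122) and Ccr7 lower (-0.21, limma adjusted p = 0.00964) in labelled knockout after anti-IgM, and Ccr7 no longer passed with median-of-ratios scaling (limma adjusted p = 0.0708). Of 18 tested FOXO targets, 12 fell and 6 rose. Sesn1, a stress-induced inhibitor of mTORC1, changed by -2.47, Cdkn1b, which encodes the cell cycle inhibitor p27, by -2.12, and Irs2, an insulin receptor adaptor, by 2.39. Trib2 (0.36, limma adjusted p = 0.000214) was higher, and Gabarapl1 (-0.25, limma adjusted p = 0.0147) and Ccng1 (-0.15, limma adjusted p = 0.0480) lower, in labelled knockout. Ccng1 lost its call under each of the 3 other scalings.

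Of 14 genes of the PI3K and AKT arm that restrains FOXO proteins, 5 rose and 6 fell. Pik3ap1, the adaptor BCAP, rose by 1.65 on the log2 scale, whereas the kinase gene Sgk3 changed by -1.83. Between genotypes Pik3ap1 was higher in labelled knockout (167 ± 2.79 and 215 ± 5.38 FPKM, SD, n = 4 each, log2 difference 0.36, limma adjusted p = 3.15e-05), as was the phosphatase gene Inpp5d (0.25, limma adjusted p = 0.00376). Sgk1, a kinase that phosphorylates FOXO3, was lower (-0.47, limma adjusted p = 0.000475), as was the 14-3-3 gene Ywhaz (-0.17, limma adjusted p = 0.00103). The glucocorticoid list, drawn up for Tsc22d3, had 6 tested genes. The receptor gene Nr3c1 fell by 1.12, while its targets Per1 and Fkbp5 rose by 1.45 and 0.74 and Tsc22d3 fell. Cxcr4 (-0.58, limma adjusted p = 5.55e-06) and Dusp1 (-0.43, limma adjusted p = 0.00614) were lower and Ddit4 (0.34, limma adjusted p = 0.0432) higher in labelled knockout, and Ddit4 no longer passed after rescaling to TPM (limma adjusted p = 0.0536).

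Of 13 other genes tied to quiescence, 10 fell and 2 rose. The transcription factor gene Ets1 changed by -2.48, the retinoblastoma relative Rbl2 by -2.0 and the CDK inhibitor gene Cdkn2c by -1.18 on the log2 scale. Between genotypes, Rb1 (-0.43, limma adjusted p = 0.000295) and Peli1 (-0.14, limma adjusted p = 0.0300) were lower and Zfp36l1, an RNA-decay factor, was higher (0.17, limma adjusted p = 0.00104) in labelled knockout after anti-IgM. Peli1 lost its call under each of the 3 other scalings. The median change with anti-IgM was -0.54 over these 13 genes, -0.965 over the FOXO targets and 0.685 over the other Krüppel-like factors, against -0.69 over the 10 factors and -0.17 over all genes tested. It was lower still over the B cell markers (-1.18), the KLF2 and FOXO1 targets (-1.16) and the other Tsc22 genes (-1.13). For the PI3K and AKT list it was -0.135, for the glucocorticoid list 0.0205 and for the CCR4-NOT list 0.136. The other forkhead genes had 0.398 and the other BTG and TOB genes 0.632.

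**Figure D5:**
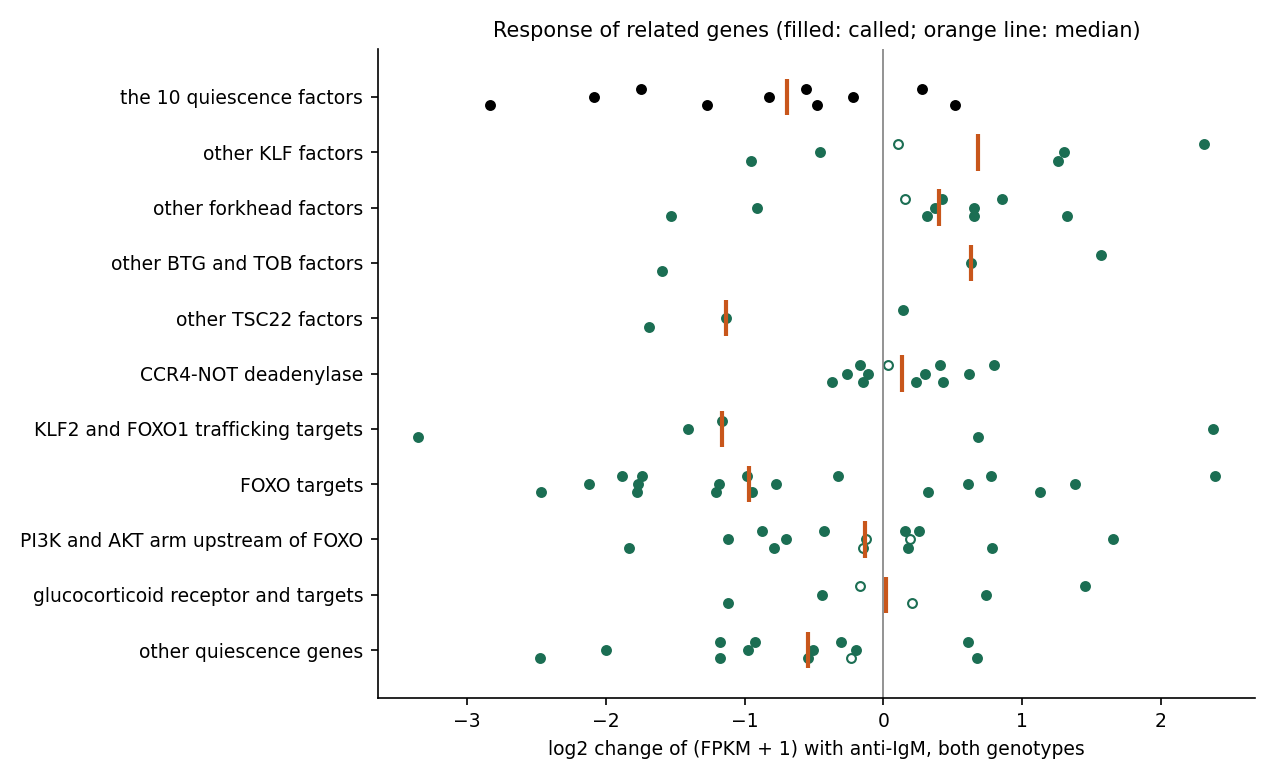
Log2 change of (FPKM + 1) with anti-IgM over both genotypes for the 10 factors (black) and each list of related genes (green), where filled points passed limma at an adjusted p under 0.05, open points did not, and the orange line is the median of the list. The lists for the other Krüppel-like, forkhead, and BTG and TOB genes have members on both sides of 0, and the medians of the FOXO targets (-0.965) and of the 10 factors (-0.69) lie below it. So do those of the KLF2 and FOXO1 targets (-1.16), the other Tsc22 genes (-1.13), the other quiescence genes (-0.54) and the PI3K and AKT list (-0.135).

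The profile of each factor over the 10 libraries was compared with that of 10215 other tested genes by Pearson's r of log2(FPKM + 1). These values are a description: the points share their libraries, and the unstimulated pair sets most of the distance. The most alike gene was Fam101b for Klf2 (r = 0.999), Hhex, a homeobox gene, for Tsc22d3 (0.999), Abca3 for Foxo1 (0.997), Phf1 for Klf13 (0.997), Arhgef18 for Klf3 (0.994) and Unk for Klf6 (0.993). For Btg1 it was its relative Tob2 (0.9925), for Foxo3 it was Ucp2 (0.988), for Foxp1 it was Gmip (0.9815) and for Tob1 it was Sap30l (0.9625). The second gene was Mgat1 for Klf2, Fam46a for Tsc22d3, Zswim3 for Foxo1, Slc15a4 for Klf13, Pik3c2b for Klf3, Arhgap25 for Klf6, B4galt1 for Btg1, Fbxl14 for Foxo3, Pik3ip1 for Foxp1 and Commd4 for Tob1, with r from 0.951 to 0.998. Within the 10, Klf2 and Tsc22d3 were most alike (r = 0.996), Klf2 and Klf3 came to 0.9875, and Foxp1 ran opposite to Klf3 (-0.889) and Klf2 (-0.876).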

How the data were processed

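The authors deposited 1 table of FPKM for 17658 genes in 10 libraries. Per the submitters' processing notes, STAR 2.4, RSEM 1.2.14 and build mm10 were used, and per the labels' protocols libraries came from a stranded mRNA kit. Read totals are not given in the sources used here, so the depth is unknown and no counting interval is attached.

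From these values log2(FPKM + 1) was computed, genes averaging 1 FPKM or more were kept, and limma 3.58.1 in R 4.3.3 (lmFit, eBayes with trend, two-sided) was fitted to all 10225 of them, with Benjamini-Hochberg adjustment over all. The response was fitted over 10 libraries with genotype as a term, the genotype difference after anti-IgM over 8, and the unstimulated difference and the difference in response in a model of 4 groups. Single factors were also tested by exact permutation over 70 labellings. The limma step was tested on simulated data, in which the unstimulated libraries were given the spread of the stimulated ones. It therefore could not check that assumption for the unstimulated pair or the difference in response. The 10 factors and all gene lists were chosen with earlier results of these data known. Besides the 10, the text names, per pathway list, every gene called between genotypes and the 3 largest called changes with anti-IgM, and the 2 most alike genes per factor. A few genes that qualify are left out of the text. Cnot2 and Cnot3 fall outside this rule and were named after their values were seen. The lists of cell type markers were not covered by the rule. From them, Lck and Cd5 were named after their values were seen, and Cd3e, Cd3d and Cd3g as defining T cell markers. Besides Klf2 and Irf4, the markers named for B cells, their subsets and plasma cells were those called between genotypes. Irf4 was also named after its values were seen. All genes of the pathway lists were matched by symbol, some through RefSeq synonyms, and lengths were found for 95.2% of tested genes in GENCODE M21. The alternatives were pseudocounts of 0.1 and 5, all genes or those averaging 5 FPKM or more, 3 scalings, other eBayes settings, the letter as a block (chosen after seeing the data outside the stimulated genotypes), and each library left out.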

Additional observations from a re-analysis of the deposited data

Results flagged for a closer look

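In all, 7 of the 10 factors responded differently to anti-IgM in the 2 genotypes by a test of the difference itself, with limma in the model of 4 groups, all with a lower response in labelled knockout, against 14.7% of all genes tested called lower. With length and GC trends removed 0 of the 10 passed in limma (7 at an unadjusted p under 0.05), with median-of-ratios scaling 4 did and with TPM 9 did. The log2 difference in response, labelled knockout minus wild type, was -0.68 for Klf2, -0.61 for Foxo3, -0.55 for Klf13, -0.38 for Foxo1, -0.31 for Klf6, -0.31 for Foxp1 and -0.18 for Btg1. These values rest on 1 unstimulated library per genotype. No group of 4 stimulated libraries of a factor held a library far from the rest by Dixon's criterion, in 20 groups looked at.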

How the results depend on the processing

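Of the 10 factors, 8 to 10 were called with stimulation in 24 alternatives, the lowest count coming without the unstimulated library labelled knockout, within wild type, after quantile normalization and with the letter within genotype as a replicate block. Leaving out the unstimulated library labelled knockout and fitting within wild type gave the same changes, so they are not separate checks. Between the stimulated genotypes the count was 3. It was 1 after quantile normalization, 1 with the letter as a replicate block, and 1 to 3 when a stimulated library was left out. Between the stimulated genotypes, same-letter correlations were -0.021, 0.045, 0.0075 and -0.12 for A to D. No pairing by letter was seen in them, which does not exclude it. Whether unstimulated and stimulated libraries of a letter share a mouse was not tested. Under the replicate block Klf6 (limma adjusted p = 0.0709) and Btg1 (0.0894) did not pass. Replicate blocks for the other comparisons were added after seeing the data. With the letter as a block, the count was 9 for stimulation, without Klf6 (limma adjusted p = 0.115), 5 for the unstimulated pair, without Klf3 (0.0708), and 5 for the difference in response, without Klf6 (0.0620) and Btg1 (0.0943). With the letter within genotype as a block, stimulation gave 8, without Klf6 (limma adjusted p = 0.235) and Btg1 (0.161). With TPM the count was 9 for both the unstimulated pair and the difference in response. With length and GC trends removed, chosen after seeing the data, the count went from 6 to 3 in the unstimulated pair and from 7 to 0 for the difference in response, with 7 at an unadjusted p under 0.05 in limma. Median-of-ratios scaling left 4 for that difference.

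Signs changed for small values. Median-of-ratios scaling gave 0.010 for the response of Klf6, and 0.017 and 0.0095 for the genotype difference of Foxo1 and Foxo3 after anti-IgM, which were 0.0041 and 0.025 after quantile normalization. With a library left out, that difference ran from -0.031 to 0.057 for Klf2, from -0.046 to 0.00058 for Foxo1 and from -0.063 to 0.021 for Foxo3. Tob1 came to 0.11 in the unstimulated pair with TPM, to 0.034 for the difference in response after quantile normalization, and to between -0.19 and 0.0032 there with a library left out. The cause was not tested.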
